A study of Mus musculus with 6 samples.

Results

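The endothelial genes of mouse brain were described here in whole-brain RNA from wild-type (WT) mice and mice transgenic for SOD1-G85R, a form of superoxide dismutase 1 whose mutations cause familial amyotrophic lateral sclerosis. The 10 genes were taken by name as markers of the brain endothelium and the blood-brain barrier (Pecam1, Cldn5, Esam, Emcn, Tie1, Flt1, Slc2a1, Icam2, Myct1 and Nostrin), and all 10 were among the 770 genes of a NanoString panel, which counts coded probes hybridised to RNA without amplification. Each genotype had 3 samples on a C57BL/6 background, labelled day 10, and the mice received no treatment. The sources used here do not give the promoter that drives the transgene, its copy number or the start from which days were counted. Nothing in the labels says whether every sample was a separate animal, and p-values therefore reflect the spread among these 6 samples alone, which may be technical.

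Brain capillaries are lined by endothelial cells that are sealed to each other by tight junctions, take up glucose through dedicated transporters and admit few blood leukocytes. These properties form the blood-brain barrier. Junction and adhesion molecules, receptors for vascular growth factors and nutrient carriers are among the genes that mark these cells. In RNA from a whole organ, fewer endothelial cells and less RNA per endothelial cell cannot be told apart.

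No difference between the genotypes was detected for any of the 10 endothelial genes. In limma's test of the deposited values, adjusted by Benjamini-Hochberg over all 712 tested genes, 0 of the 10 passed an adjusted p of 0.05, where 0.0% of all tested genes passed, and the 10 genes' adjusted p-values ran from 0.447 to 0.918. At an unadjusted p of 0.05 the count in this fit was again 0 of 10, against 16.3% of all tested genes. The WT and SOD1-G85R samples overlapped for each of the 10, while the groups did not overlap for 27.0% of the tested genes. Log2 fold changes, SOD1-G85R minus WT on the log2(value + 1) scale, were positive for 8 and negative for 2, and 62.6% of all tested genes were positive. The median over the 10 was 0.17, beside 0.15 over all tested genes. With SOD1-G85R replicate 2 left out, the median of the 10 was -0.056, 5 of the 10 were positive and 0 passed, and 1.4% of all tested genes passed in that fit.

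The samples were not equally deep or alike. Implied total counts were 689749 to 970301 in WT and 468718 to 1022645 in SOD1-G85R. SOD1-G85R replicate 2 stood apart, with log2 correlations across tested genes of 0.824 to 0.834 with the other samples, against 0.956 to 0.984 among those, and its median signal was 332 against 173 to 212 elsewhere. Genes are not independent replicates for these correlations. Neuronal list genes (10 measured) summed to 37769 to 42398 normalized counts in WT and 30191 to 37446 in SOD1-G85R, so RNA of the labelled tissue was measured in every sample. Expression of the transgene was not analysed here, which leaves the genotype labels without a check. All 10 endothelial genes lay above the lowest value of each sample, which was read as a floor. The nearest was Myct1, at 3.90 times that floor in its closest sample.

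Of the junction and adhesion genes, Cldn5 encodes claudin-5, the main claudin of the brain endothelial tight junction. It read 732, 1177 and 932 normalized counts in the WT samples and 667, 1797 and 1048 in those with SOD1-G85R, in each case in the order of replicates 1, 2 and 3, as for the genes that follow. The SOD1-G85R group held both the lowest and the highest sample, on either side of the WT range. Means were 947 ± 223 and 1171 ± 575 (SD, n = 3 each), with a log2 fold change of 0.22 (SE 0.40, limma adjusted p = 0.820). The 95% confidence interval of that difference, -0.76 to 1.19, was the widest among the 10 genes and corresponds to folds of 0.591 to 2.28. Without SOD1-G85R replicate 2 the Cldn5 log2 fold change was -0.15.

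Pecam1 encodes CD31, an adhesion molecule of endothelial cell borders that platelets and leukocytes also carry. Its values were 383, 380 and 431 in the WT samples and 361, 636 and 351 in the SOD1-G85R samples. One sample, SOD1-G85R replicate 2, was above all WT samples and the other SOD1-G85R samples were below them. Means were 398 ± 28.9 and 449 ± 162, and the log2 fold change was 0.12 (SE 0.28, limma adjusted p = 0.844) with an interval of -0.56 to 0.80. Without SOD1-G85R replicate 2 it was -0.16, with an interval of -0.67 to 0.36.

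Esam, an immunoglobulin-type adhesion molecule of endothelial junctions, showed the closest agreement among WT samples, at 331, 356 and 348. The SOD1-G85R samples read 324, 503 and 389, with 2 above and 1 below every WT sample. The means of 345 ± 12.6 and 405 ± 90.8 gave a log2 fold change of 0.21 (SE 0.22, limma adjusted p = 0.661), with an interval of -0.33 to 0.74.

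Icam2, an endothelial ligand for leukocyte integrins, had the largest fold change of the 10. WT samples read 104, 128 and 151, and SOD1-G85R samples read 130, 208 and 203. In SOD1-G85R replicate 1 the value lay inside the WT range, and the other 2 lay above it. Means were 128 ± 23.3 and 180 ± 43.6, a log2 fold change of 0.48 (SE 0.27, limma adjusted p = 0.447) with an interval of -0.17 to 1.13. Icam2 kept a positive value without SOD1-G85R replicate 2, at 0.36 (limma adjusted p = 0.589).

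Emcn encodes endomucin, a sialomucin of capillary and venous endothelium that hinders leukocyte adhesion. WT samples read 205, 148 and 197 and SOD1-G85R samples 232, 201 and 192. Only WT replicate 2 was lower than all 3 SOD1-G85R samples. The log2 fold change was 0.19 (SE 0.21, limma adjusted p = 0.672), and the interval of -0.32 to 0.71 was the narrowest of the 10.

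Of the receptors, Tie1, the partner of the angiopoietin receptor Tie2, gave 202, 217 and 204 in WT samples and 176, 360 and 192 in those with SOD1-G85R. As for Pecam1, replicate 2 of SOD1-G85R was above the WT range and the other 2 below it. Means were 208 ± 8.43 and 242 ± 102, with a log2 fold change of 0.15 (SE 0.31, limma adjusted p = 0.828) and, without that replicate, of -0.18.

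Flt1 encodes VEGF receptor 1, which binds VEGF-A tightly and also occurs in a soluble form that limits VEGF signalling. Its WT samples read 229, 216 and 234 and its SOD1-G85R samples 234, 257 and 156. The last value, SOD1-G85R replicate 3, was the lowest of the 6, and SOD1-G85R replicate 2 was above every WT sample. SOD1-G85R replicate 1 was level with the highest WT sample, at 234.38 against 234.11. Means of 227 ± 9.27 and 216 ± 52.9 gave a log2 fold change of -0.10 (SE 0.24, limma adjusted p = 0.850), and without SOD1-G85R replicate 3 it was 0.12.

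Slc2a1 encodes GLUT1, the glucose carrier of the blood-brain barrier, which astrocytes also express. WT samples read 273, 374 and 361 and SOD1-G85R samples 259, 381 and 250. Replicates 1 and 3 of SOD1-G85R were below the WT range and replicate 2 was just above it. Means were 336 ± 55.1 and 297 ± 73.4, and the log2 fold change of -0.19 (SE 0.25, limma adjusted p = 0.733) was the most negative of the 10, with an interval of -0.81 to 0.42.

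Nostrin encodes an adaptor that binds endothelial nitric oxide synthase and takes part in its trafficking. It read 110, 88.5 and 150 in WT samples and 152, 104 and 105 in those with SOD1-G85R. All but one SOD1-G85R value fell within the WT range. The log2 fold change was 0.063 (SE 0.28, limma adjusted p = 0.918).

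Myct1, a MYC target gene enriched in endothelium, had the lowest signal of the 10. WT samples read 39.6, 52.3 and 44.7 and SOD1-G85R samples 51.1, 47.8 and 78.1. SOD1-G85R replicate 3 was above the WT range and the other 2 were inside it. Implied counts of Myct1 ran only from 48 to 60 over all samples. In SOD1-G85R replicate 3, 1 count was worth 1.42 normalized counts, the most of any sample. The log2 fold change was 0.34 (SE 0.26, limma adjusted p = 0.558), with an interval of -0.28 to 0.96.

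**Figure D1:**
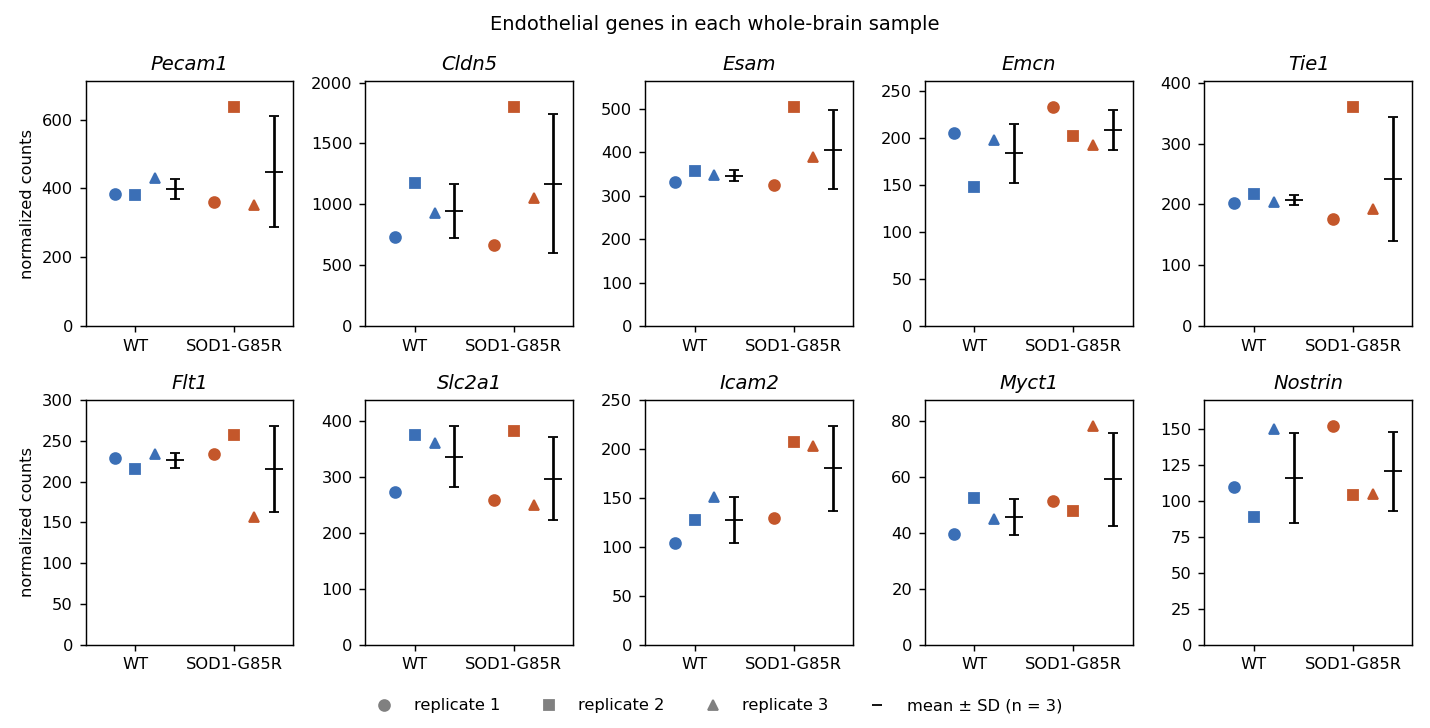
Normalized counts (vertical axis, linear from 0) of each endothelial gene in the 3 WT (blue) and 3 SOD1-G85R (orange) samples, with the marker shape giving the replicate number and black bars the mean ± SD of each group. The orange square, SOD1-G85R replicate 2, was the highest of the 6 samples for 7 of the 10 genes, and the groups overlapped for all 10.

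The intervals limit how large a difference these samples could hide. For 8 of the 10 genes the 95% interval of the log2 fold change lay inside -1 to 1, so that neither a 2-fold increase nor a 2-fold decrease of the mean was inside it, and for Cldn5 and Icam2 the upper end exceeded 1. With SOD1-G85R replicate 2 left out the interval also lay inside -1 to 1 for 8 of 10. With samples centred on their medians it did so for 7 of 10. Changes inside these intervals could not be told from 0 with 3 samples a group. The plot of fold changes shows these intervals.

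**Figure D2:**
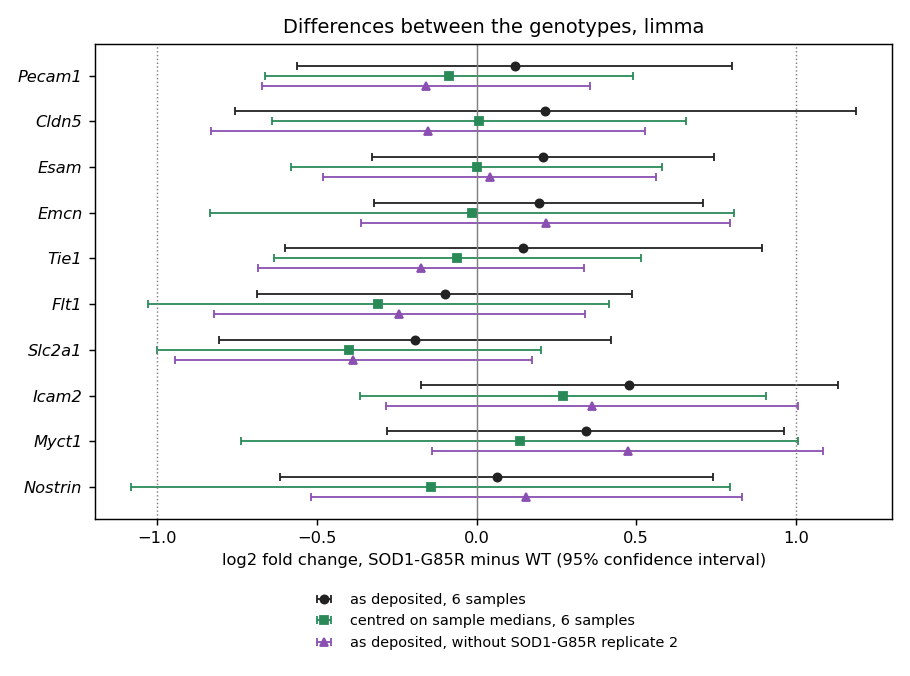
Log2 fold change of each endothelial gene, SOD1-G85R minus WT (horizontal axis), with limma's 95% confidence interval in the deposited scaling (black), with each sample centred on its median (green) and without SOD1-G85R replicate 2 (purple). Dotted lines mark 2-fold changes, and every interval includes 0.

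Implied counts per sample, the value divided by what 1 count is worth, ran from 48 to 60 for Myct1 and from 626 to 2257 for Cldn5. The largest counting error at those depths was 14.4% of the value for Myct1 and 6.36% for Pecam1. Among WT samples the coefficient of variation was 3.64% for Esam, 4.06% for Tie1, 4.09% for Flt1 and 7.25% for Pecam1, and it was 23.5% for Cldn5 and 27.0% for Nostrin. For Esam, Tie1 and Flt1 that WT spread was smaller than the counting error of the WT samples, which reached 5.31%, 6.80% and 6.82%. Among SOD1-G85R samples it was 36.0% for Pecam1, 42.1% for Tie1 and 49.1% for Cldn5. It was larger in SOD1-G85R than in WT for 8 of the 10 genes, where this held for 68.4% of all tested genes, the exceptions being Emcn and Nostrin. The within-group SD on the log2 scale had a median of 0.31 over the 10 genes and 0.36 over all tested genes.

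SOD1-G85R replicate 2 gave the highest value of the 6 samples for 7 of the 10 genes, and it did so for 45.9% of all tested genes. These were Pecam1, Cldn5, Esam, Tie1, Flt1, Slc2a1 and Icam2, singled out after their values were seen. For Slc2a1 and Icam2 the next sample was within 1.02-fold. For Tie1, Cldn5, Pecam1 and Esam it was exceeded by 1.66-fold, 1.53-fold, 1.47-fold and 1.29-fold. Emcn, Nostrin and Myct1 read 1.02, 0.949 and 0.934 times the median of the other 5 samples there, and Cldn5 and Tie1 1.93 and 1.78 times. In the deposited scaling 9 of the 10 were above their WT mean in that sample, beside 67.0% of all tested genes, by 0.077 for Myct1 to 0.95 for Cldn5 on the log2 scale, and Nostrin was at -0.12. Their median difference from the WT mean was 0.37, beside 0.32 for all tested genes. With samples centred on their medians, 2 of the 10 were above it, beside 35.0% of all tested genes, with differences from -0.87 for Nostrin to 0.20 for Cldn5.

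**Figure D3:**
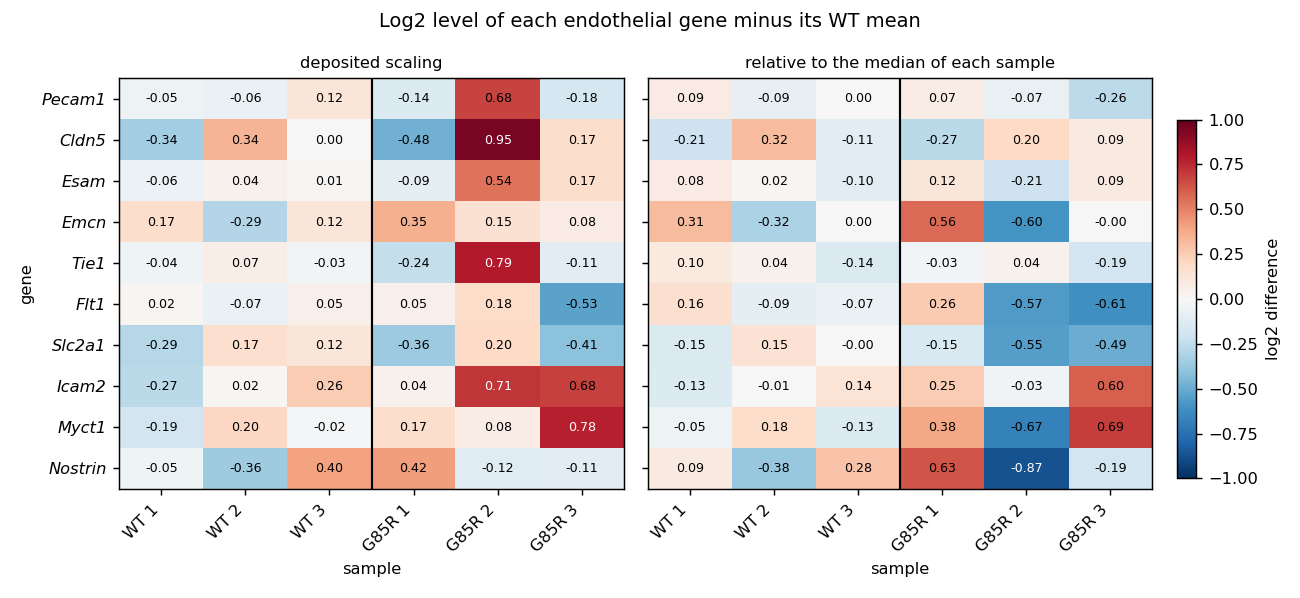
Log2 level of each endothelial gene (rows) in each sample (columns, G85R standing for SOD1-G85R) minus its WT mean, in the deposited scaling (left) and after subtracting each sample's median over tested genes (right), with red above and blue below 0. In the deposited scaling Cldn5 was 0.95 and Tie1 0.79 above WT in SOD1-G85R replicate 2, and after centring they were at 0.20 and 0.04 while Nostrin was at -0.87.

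The other samples had patterns of their own. In SOD1-G85R replicate 3, Icam2 and Myct1 were 0.68 and 0.78 above the WT mean on the log2 scale, and Flt1 and Slc2a1 were at -0.53 and -0.41. In SOD1-G85R replicate 1, Nostrin and Emcn were 0.42 and 0.35 above it, while Cldn5 was at -0.48. In WT replicate 2, Cldn5 was at 0.34 and Nostrin and Emcn were at -0.36 and -0.29. Cldn5 and the pair Emcn and Nostrin thus lay on opposite sides of the WT mean in 1 sample of each genotype.

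Ratios between genes of the same sample do not depend on how that sample was scaled. The log2 ratio of Cldn5 to Nostrin varied most among the 45 pairs of endothelial genes, from 2.13 in SOD1-G85R replicate 1 to 4.11 in replicate 2, with 2.73, 3.73 and 2.63 in WT. Its group means were 3.03 ± 0.61 and 3.18 ± 1.00. The groups did not overlap in 2 of the 45 ratios, 4.44%, where 30.3% of all pairs of tested genes did not overlap. Both involved Slc2a1 and are named after their values were seen. Slc2a1 over Icam2 was 1.39, 1.55 and 1.26 on the log2 scale in WT samples and 0.99, 0.88 and 0.30 in the others. Esam over Slc2a1 was 0.28, -0.072 and -0.052 in WT samples and 0.32, 0.40 and 0.64 in those with SOD1-G85R. Pairs share genes and are not independent, and no test was run on them.

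The RefSeq promoter table (GRCm38.p6) held 7 of the 10 genes. The 250 bases before the start are shown for the genes with the highest readings in SOD1-G85R replicate 2 relative to the other samples among these 7, Cldn5 and Tie1, and for Emcn and Nostrin, which lay opposite to Cldn5 in SOD1-G85R replicate 1 and WT replicate 2. Capitals mark AGGAAG or its reverse complement, a form of the core bound by ETS factors, a family that includes regulators of endothelial genes. Each is written on the strand of its gene, 5′ to 3′, at chr16:18776597-18776846 (+) for Cldn5, chr4:118489850-118490099 (-) for Tie1, chr3:137340828-137341077 (+) for Emcn and chr2:69135550-69135799 (+) for Nostrin.
Cldn5: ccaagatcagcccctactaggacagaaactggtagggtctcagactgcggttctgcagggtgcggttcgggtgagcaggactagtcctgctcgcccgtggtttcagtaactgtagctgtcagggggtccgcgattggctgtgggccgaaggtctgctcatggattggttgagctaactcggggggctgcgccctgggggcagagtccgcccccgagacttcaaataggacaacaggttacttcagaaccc
Tie1: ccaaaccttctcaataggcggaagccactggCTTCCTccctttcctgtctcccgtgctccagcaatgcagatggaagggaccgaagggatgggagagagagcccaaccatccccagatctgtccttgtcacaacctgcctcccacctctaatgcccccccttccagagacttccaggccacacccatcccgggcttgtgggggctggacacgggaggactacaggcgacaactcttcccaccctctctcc
Emcn: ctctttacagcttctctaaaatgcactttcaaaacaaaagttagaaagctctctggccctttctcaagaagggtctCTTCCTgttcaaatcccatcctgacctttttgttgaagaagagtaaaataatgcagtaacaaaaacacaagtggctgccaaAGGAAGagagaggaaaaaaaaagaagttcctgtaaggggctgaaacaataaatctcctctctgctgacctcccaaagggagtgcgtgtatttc
Nostrin: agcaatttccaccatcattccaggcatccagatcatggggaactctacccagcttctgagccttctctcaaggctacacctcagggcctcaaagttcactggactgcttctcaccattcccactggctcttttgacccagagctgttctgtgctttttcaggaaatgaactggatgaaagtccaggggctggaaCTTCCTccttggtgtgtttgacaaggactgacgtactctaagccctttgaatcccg
AGGAAG, searched on both strands, was in 4 of the 7 promoters (Tie1, Flt1, Emcn and Nostrin) and in 29.5% of all 32851 promoters of that length. The other motifs were also searched on both strands. Another ETS form, CCGGAAG, was in 0 of the 7 and in 6.91% of all promoters. The SOX core ACAAT was in 1 of the 7 (Emcn) and in 27.7%, and the GATA form AGATAA was in 1 of the 7 (Myct1) and in 9.99%. AGGAAG was in none of the letters shown for Cldn5. The matches are a description of letters and were not tested for binding.

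Few other vascular genes were on the panel. Of 37 further endothelial identity genes 2 were measured. Cd109, a surface protein that binds TGF-beta, read 65.7, 39.2 and 70.3 in WT samples and 103, 151 and 96.6 in those with SOD1-G85R, so its groups did not overlap. Its log2 fold change was 1.01 (SE 0.31, limma adjusted p = 0.224), which did not pass. Ly6a, an interferon-inducible surface gene of brain endothelium and other cells, was at 5388 in SOD1-G85R replicate 2 and at 161 to 272 in the other 5 samples. Its log2 fold change was 1.49 (limma adjusted p = 0.597) with all samples and -0.06 without that one.

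Of 34 genes of barrier junctions and transport, 2 were measured and 0 passed. Lsr, a protein of tricellular junctions, had means of 185 ± 19.2 and 261 ± 90.0 in WT and SOD1-G85R (log2 fold change 0.44, limma adjusted p = 0.518). Jam2, a junctional adhesion molecule, averaged 945 ± 161 and 901 ± 89.2 (log2 fold change -0.06, limma adjusted p = 0.897). Of 36 angiogenic ligands, receptors and regulators, 7 were measured, 0 passed, and the median log2 fold change was 0.19, or -0.02 with samples centred on their medians. Vegfa, the main ligand of Flt1, averaged 589 ± 93.4 and 615 ± 36.9 (log2 fold change 0.07, limma adjusted p = 0.866). Tgfb1, which encodes TGF-beta 1, was at 594 in SOD1-G85R replicate 2 and at 129 to 210 elsewhere.

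Of 24 listed genes of endothelial activation and adhesion, many of which other cells share, 12 were measured. Of these 0 passed in either direction, and 11 of 12 had a positive fold change, beside 62.6% of all tested genes. The list's median log2 fold change was 0.82, beside 0.15 for all tested genes, and without SOD1-G85R replicate 2 it was 0.31, beside 0.0071. Lrg1, a secreted protein of activated vessels, read 10.3, 16.1 and 13.6 in WT samples and 28.8, 30.3 and 38.4 in those with SOD1-G85R (log2 fold change 1.23, SE 0.24, limma adjusted p = 0.140). It passed with sample weights, at 1.37 (limma adjusted p = 0.0186), and with SOD1-G85R replicate 2 left out and samples centred on their medians, at 1.34 (limma adjusted p = 0.00933), the latter chosen after seeing the data. Every WT value was under 20 normalized counts and every SOD1-G85R value above it, so Lrg1 could pass the low-value filter only with groups that did not overlap. Lcn2, the iron-sequestering acute-phase protein lipocalin 2, was at 552 in SOD1-G85R replicate 2, at 20.2 and 36.9 in replicates 1 and 3, and at 11.1 to 19.2 in WT.

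Summed markers of other cells that vessels or blood could bring were highest in SOD1-G85R replicate 2. The leukocyte, platelet and erythroid list, 13 of 29 measured, summed to 339 to 355 normalized counts in WT and 331 to 2213 in SOD1-G85R, the highest being replicate 2, and Cd3e and Cd8a were at the floor in all 3 WT samples. Cd3d, a T cell receptor component, read 20.2, 114 and 28.4 in SOD1-G85R. Perivascular macrophage genes, 4 of 12 measured, summed to 86.8 to 149 in WT and 162 to 498 in SOD1-G85R, with Siglec1, a sialic acid-binding macrophage receptor, at 143 in replicate 2 and 20.2 and 36.9 in the others. Cd163, a haemoglobin scavenger receptor of the same list, went the other way, at 24.7 in replicate 2, the lowest of the 6 samples, and 27.2 to 66.8 elsewhere. Interferon response genes, 15 of 35 measured, summed to 1462 to 1805 in WT and 1803 to 42887 in SOD1-G85R, and Cxcl10, an interferon-induced chemokine, was at 3511 in replicate 2. Their part in the values of Pecam1, Icam2, Cldn5 and Tie1 in that sample was not tested. Of 24 mural cell and fibroblast genes 1, Spp1, was measured, and it is not a defining marker of mural cells.

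**Figure D4:**
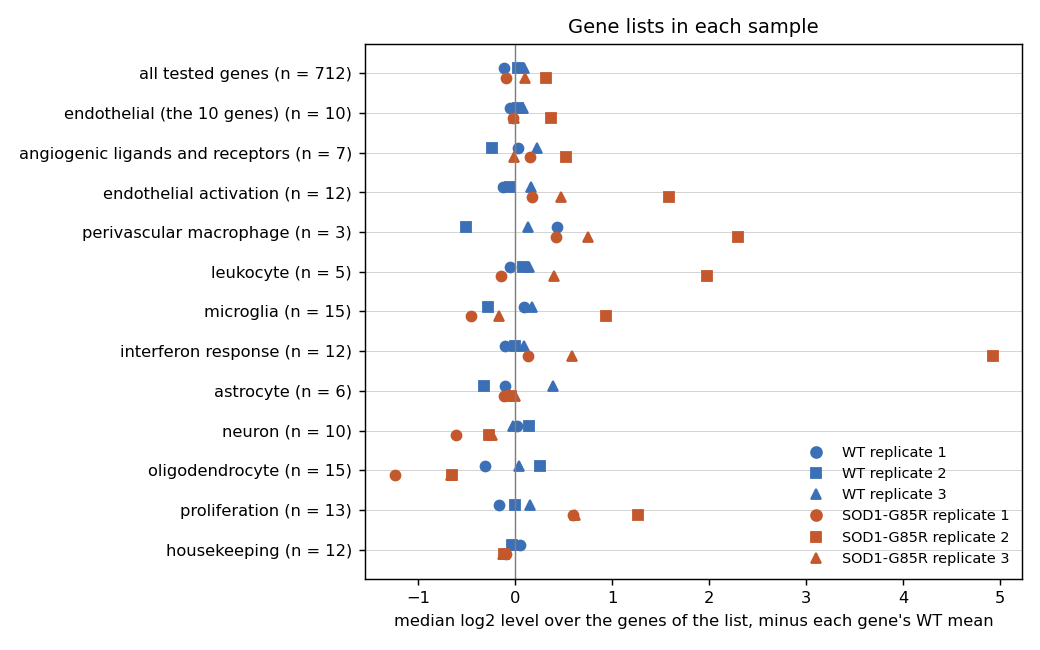
Median log2 level over the tested genes of each list, minus each gene's WT mean (horizontal axis), in each WT (blue) and SOD1-G85R (orange) sample, with n the number of genes. The endothelial genes sat between -0.056 and 0.083 in WT and at -0.025, 0.37 and -0.016 in SOD1-G85R, near the values of all tested genes, and the interferon list reached 4.92 in SOD1-G85R replicate 2.

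Beside the other cell types, the endothelial list was among those with median differences near that of the panel. Oligodendrocyte genes had a median log2 fold change of -0.77 over 15 tested and neuronal genes of -0.34 over 10, with 0 passing limma's adjusted threshold in either list. The groups did not overlap for 11 of the 15 and 6 of the 10, and for 0 of the 10 endothelial genes, beside 27.0% of all tested genes. Astrocyte and microglia genes were like the endothelial list here, with 0 of 6 and 1 of 15 not overlapping. Their median log2 fold changes were 0.0050 and 0.13. The lists were not tested against each other.

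The genes whose profile over the 6 samples came nearest to the mean profile of the 10 endothelial genes were Suv39h1, Jag1, Cd47, Rpa1 and Cidea. Likeness was the root mean square distance between log2 profiles, each centred on its own mean, and was 0.044, 0.058, 0.082, 0.093 and 0.097 for these, with a median of 0.36 over the 702 other tested genes. The endothelial genes themselves were at 0.083 for Esam to 0.35 for Nostrin, so several were less like their own mean than these 5 were. Jag1, a Notch ligand that vessels and other cells express, read 79.1, 93.5 and 101 in WT samples and 91.6, 131 and 93.8 in those with SOD1-G85R.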

How the data were processed

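RNA from whole-brain homogenates was measured on NanoString, per the labels' protocols. The authors deposited 1 normalized signal for each gene in each sample, here termed normalized counts. How the values were scaled and how background was treated is not given in the sources used. Below 150, and above each sample's lowest value, 100% of distinct values were whole multiples of 1 step within 0.1 count, and summed signal over that step gave the implied counts. The lowest value, shared by 10 to 59 genes, was read as a floor, so no count test was run. Intervals for counting cover counting error only.

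Genes above 20 in at least 3 of 6 samples were tested (712, with 58 left out) as log2(value + 1), which understates changes of low genes, with limma 3.58.1 (lmFit, eBayes, two-sided) in R 4.3.3, without covariates, adjusted by Benjamini-Hochberg over all tested genes. The fit was checked on simulated data with known changes in some genes. At the adjusted threshold it recovered 50% of log2 changes of 1 and 79% of log2 changes of 2, with 3 false calls. Many changes of 2-fold would therefore be missed. Members and lists were chosen with earlier results of these data known. Named genes are the 10, up to 3 of smallest p in each other list, and up to 5 nearest in profile. Python 3.11.15 and matplotlib 3.10.9 drew the figures. Of 770 symbols 763 were current in GRCm38.p6 RefSeq. Alternatives were other scalings, filters, pseudocounts, variance models, a replicate block and leaving out each sample.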

Additional observations from a re-analysis of the deposited data

How the results depend on the processing

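Under 19 other settings, 0 of the 10 endothelial genes passed limma's adjusted threshold in any, and the smallest adjusted p was 0.131, for Myct1 with sample weights. Esam, Icam2 and Slc2a1 kept their direction in all 19, though Esam was near 0 in some. The Esam log2 fold change was 0.0011 under median centring and 0.041 without SOD1-G85R replicate 2. Other filters, values under 20 set to 20, the trended robust variance and the replicate block could not alter the fold changes of the 10. Those settings therefore say nothing about direction. The median log2 fold change of the 10 was -0.036 under median centring, beside -0.059 for all tested genes. Under quantile normalization it was -0.10, beside -0.083. With samples centred on housekeeping genes it stayed positive, at 0.16 beside 0.14 for all tested genes. When single samples were left out, the median of the 10 ranged from -0.056 without SOD1-G85R replicate 2 to 0.29 without SOD1-G85R replicate 1. The combination of leaving out SOD1-G85R replicate 2 and centring, and a term for samples with Uty (Y-linked) signal above 100, were chosen after seeing the data. With the Uty term the median log2 fold change of the 10 was 0.25, beside 0.17 for all tested genes. Estimates moved with that term because samples above and below the cut were not evenly split between the genotypes. That signal and genotype were therefore partly confounded. Over the panel 52 genes passed with sample weights, whose estimation stopped before it converged, 80 with that combination, and 0 to 10 when single samples were left out, the 10 without SOD1-G85R replicate 2. At an unadjusted p of 0.05 there were 116. Of the genes named outside the 10, Lrg1 passed with sample weights, and with the combination Lrg1, Lcn2 (0.97), Siglec1 (1.08), Cd3d (1.06) and Cxcl10 (0.94) passed, at limma adjusted p-values of 0.00933 to 0.0431. For each of these genes, every WT value was under 20 normalized counts and every SOD1-G85R value above it. Each could therefore pass the low-value filter only with groups that did not overlap, and these passes are not independent of that filter.

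Log2 fold changes that changed sign, none past the threshold, were as follows, and the cause was not tested. With median centring they were Pecam1 -0.087, Emcn -0.013, Tie1 -0.060, Nostrin -0.14, Jag1 -0.012, Vegfa -0.13, Cd47 -0.025 and Rpa1 -0.13. After quantile normalization they were Pecam1 -0.00033, Emcn -0.14, Tie1 -0.071, Myct1 -0.21, Nostrin -0.38, Jag1 -0.31, Vegfa -0.0064, Rpa1 -0.023 and Cidea -0.25. Sample weights gave Pecam1 -0.16, Tie1 -0.054, Nostrin -0.19, Vegfa -0.077 and Rpa1 -0.018, the Uty term gave Nostrin -0.083, and the combination gave Pecam1 -0.095, Cldn5 -0.088, Tie1 -0.11 and Jam2 0.016. When single samples were left out the ranges were Pecam1 -0.16 to 0.27, Cldn5 -0.15 to 0.56, Tie1 -0.18 to 0.34, Flt1 -0.24 to 0.12, Nostrin -0.12 to 0.26, Ly6a -0.057 to 2.41, Jam2 -0.21 to 0.018, Vegfa -0.045 to 0.19 and Rpa1 -0.032 to 0.19. Deviations from the group means correlated at 0.23, 0.088 and 0.0999 for same-numbered samples and at -0.32 to 0.19 for differently numbered ones. With 3 samples a group, these values cannot settle whether the replicate numbers pair the samples. With the replicate block 0 of 712 genes and 0 of the 10 passed, as without it. Icam2 had an unadjusted p of 0.0401 with the block (limma adjusted p = 0.198) and an unadjusted p of 0.0332 without SOD1-G85R replicate 1 (limma adjusted p = 0.220). Myct1 had an unadjusted p of 0.0215 with sample weights (limma adjusted p = 0.131) and an unadjusted p of 0.0425 with the combination (limma adjusted p = 0.206). These were the 4 instances under 0.05 among the endothelial genes in all settings. With 3 samples a group, changes smaller than the intervals given could not be seen.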
